A study of Rattus norvegicus with 138 samples.

Results

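Volumetric muscle loss (VML) is an injury in which a piece of muscle is removed surgically and does not grow back in full. Here injured muscles of rats labelled as running were compared with injured muscles of rats labelled as not running at 28 days post injury (DPI). The members were the day 28 libraries labelled as injured whose title also names the injured leg, 1 library per muscle and 1 muscle per rat. They comprised 4 running and 8 non-running muscles, 12 of the 116 muscles of the series that the labels put in a group. All rats were Lewis rats of the study's stock of inbred adult males, the muscle was the tibialis anterior (TA), and the injury was a punched defect in that muscle. Both sides held non-repaired and repaired muscles. Running non-repaired muscles came from rats 085 and 086, and running muscles repaired with minced muscle grafts (MMGs, small pieces of the rat's own excised muscle laid back into the defect) from rats 087 and 088. Non-running, non-repaired muscles came from rats 073, 074, 081 and 082, and non-running muscles with MMGs from rats 075, 076, 083 and 084. The kind, amount and start of running are not given in the labels or in the study's methods, and no record of distance was used here.

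Running went with the order of the rat numbers: the 4 running rats carried the highest numbers of the 12, so running and anything else that changed along that order cannot be told apart in this comparison. The non-running rats fell in 2 ranges of numbers, 073 to 076 and 081 to 084, and the difference between these ranges is given below as a measure of how far number alone went with the values. Rats 077 to 080 also ran, but their 8 libraries have titles and labels that name opposite muscles, so they were left out. Of the 4 of these labelled as injured, 3 lay inside the range of the 8 non-running muscles for Pdk4, 3 for Actc1, 2 for Scd, 2 for Chrna1, 2 for Sln and 0 for Myog, genes described below.

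Levels are TPM as the authors deposited them, a unit per transcript length that is relative to the whole library. The genes in the table summed to 960656 to 966288 TPM in the 12 muscles. Sequencing depth cannot be recovered from such values, so their counting error is not known. Between 9941 and 10177 genes exceeded 1 TPM in the running muscles and between 9899 and 10525 in the non-running muscles. Pairs of running muscles correlated at 0.981 to 0.994 over genes on the log2 scale, pairs of non-running muscles at 0.976 to 0.994, and pairs across the groups at 0.965 to 0.993. Fast-fibre contractile genes, the defining transcripts of the TA, were abundant in every library, with a summed level of 231139 to 245588 TPM in running and 169709 to 242301 TPM in non-running muscle. The muscle of rat 076 (non-running, MMG) had the lowest of these sums and the most ribosomal RNA, 0.96% of TPM against at most 0.21% in running muscle.

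Skeletal muscle fibres are kept in a mature state by their motor nerve. An innervated fibre confines acetylcholine receptors to the neuromuscular junction, whereas a fibre that has lost its nerve, or a young regenerating fibre, makes receptor subunits, myogenic regulators and embryonic sarcomere proteins along its whole length. Endurance activity is known in muscle for its influence on fuel use, on transcriptional responses to contraction and on the muscle clock. Genes of these programmes were therefore read in turn. The samples are pieces of whole muscle, so fewer cells of a type and less RNA per cell cannot be told apart.

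No gene passed the call rule for running against non-running muscle. The rule asked for a Benjamini-Hochberg adjusted p under 0.05 in limma and a log2 fold change beyond 1 in either direction, and 0 of 10406 genes tested (0%) met it. The lowest adjusted p was 0.255, for Hotairm1, a long noncoding RNA of the Hoxa cluster. At an unadjusted p under 0.05 there were 1649 genes (15.8%), of which 1362 (13.1%) were lower and 287 (2.76%) higher in running muscle. This split depended on scaling, since the median log2 difference of all genes was -0.10 as deposited and 0.01 after rescaling by median-of-ratios size factors, and the rescaled values gave 749 lower and 793 higher genes. Running and non-running values did not overlap for 576 genes (5.54%), 473 of them (4.55%) lower and the rest (0.99%) higher in running muscle. Of the genes that did not overlap, had an unadjusted p under 0.05 and differed by more than 1 on the log2 scale, 21 (0.202%) were lower and 0 (0%) higher. Leaving out rat 085, 087 or 088 brought the unadjusted count to 908, 931 and 945 genes, with 684, 740 and 736 of them lower. Without rat 075 there were 2087 lower genes. The higher count was 173 without rat 086, 191 without rat 087 and between 209 and 313 without any other. The shares of 13.1% and 2.76%, given beside gene lists below, moved with them, and no muscle left out gave a called gene. All differences below are log2 differences of TPM + 1, running minus non-running, with the standard error from limma, and values are given for genes that did not pass the rule.

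**Figure D1:**
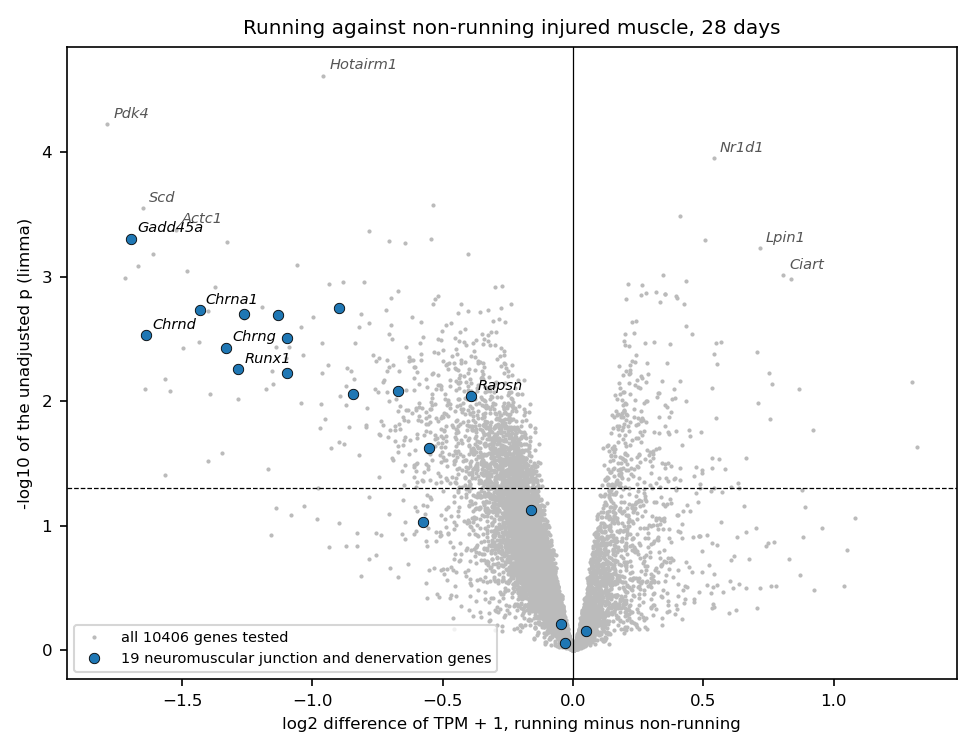
Log2 difference (running minus non-running, 28 DPI) on the horizontal axis against -log10 of the unadjusted limma p on the vertical axis for all 10406 genes, with the 19 neuromuscular junction and denervation genes in blue and the dashed line at p of 0.05. Of the 19, 14 lie above the line on the left side, while no gene passes after adjustment.

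The genes of the neuromuscular junction and the denervation response stood lower in the running muscles, as a list and in most members. Of 19 members tested, 14 were lower and 0 higher at an unadjusted p under 0.05, beside 13.1% and 2.76% of all genes, and 11 did not overlap between the groups, all lower in running muscle, beside 4.55% of all genes that were lower without overlap. The list median was -0.90, beside -0.10 over all genes, and -0.78 after rescaling by size factors. With each muscle left out in turn, the count stayed between 13 and 15 and the median between -0.99 and -0.76. Without rat 076, the muscle that was highest for 15 of the 19 genes, the count was 14 and the median -0.76. None of these genes passed after adjustment over all genes (lowest adjusted p 0.284 in limma). The summed level of the list was 473 to 702 TPM in running muscle, 807 to 2738 TPM in non-running muscle and 252 to 265 TPM in the 4 uninjured contralateral muscles of rats 073 to 076.

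Among the receptor subunits, Chrna1, the acetylcholine-binding alpha subunit, measured 40.1, 72.3, 36.1 and 76.3 TPM in running rats 085 to 088. The 8 non-running muscles ranged from 81.6 to 352 TPM with a median of 130.4. The groups did not overlap, with a difference of -1.43 ± 0.36, and contralateral muscle lay far under both at 3.83 to 5.22 TPM. Chrnd, the delta subunit, was at 17.6, 26.4, 12.1 and 34.2 TPM in running muscle and at 29.1, 60.6 and 196 TPM (lowest, median, highest) in non-running muscle. The difference was -1.64 ± 0.44, and rat 088 overlapped the lowest non-running muscle, that of rat 083. Chrng encodes the gamma subunit, which belongs to the fetal receptor and is replaced at mature junctions. It measured 5.0, 7.32, 2.90 and 7.91 TPM in running muscle against 7.67, 13.9 and 42.3 TPM, a difference of -1.33 ± 0.37 with rat 088 again inside the non-running range. In contralateral muscle Chrng was at 0 to 0.11 TPM.

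The beta and epsilon subunits had smaller differences than the alpha, delta and gamma subunits in these muscles. Chrnb1, the beta subunit, had 32.3, 37.1, 28.9 and 38.6 TPM in running muscle and 40.5, 48.8 and 96.1 TPM (lowest, median, highest) in non-running muscle, a difference of -0.67 ± 0.21. Chrne, the epsilon subunit of the adult receptor, had 25.2, 27.4, 16.9 and 29.5 TPM against 31.6, 42.3 and 100.9 TPM, a difference of -0.84 ± 0.27. Neither gene overlapped between the groups.

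The junction's organisers followed the same order. Musk, the receptor tyrosine kinase through which the nerve clusters acetylcholine receptors, measured 2.44, 4.25, 2.27 and 3.81 TPM in running muscle and 4.57, 8.41 and 22.1 TPM (lowest, median, highest) in non-running muscle. Its difference was -1.26 ± 0.32 with no overlap. Lrp4, the agrin receptor that acts with Musk, differed by -0.55 ± 0.21, and Rapsn, the scaffold that holds receptors in clusters, by -0.39 ± 0.13, both with no overlap. Dok7, the cytoplasmic activator of Musk, differed by -0.16 and did not reach an unadjusted p under 0.05.

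Transcription and stress factors of denervated fibres had some of the largest differences. Gadd45a, a nuclear stress protein known to rise in denervated muscle, measured 57.2, 78, 53.9 and 84.1 TPM in running muscle and 107.03, 201 and 595 TPM in non-running muscle. The groups were apart by -1.70 ± 0.36 and did not overlap, and contralateral muscle held 20.2 to 31.7 TPM. Cdkn1a, the p21 inhibitor of the cell cycle, had 134.97, 189.9, 128.98 and 189 TPM against 208, 338 and 853 TPM, a difference of -1.13 ± 0.29. Runx1, a transcription factor that limits wasting of denervated fibres, had 5.92, 9.87, 6.28 and 11.3 TPM against 11.4, 19.9 and 58.3 TPM, a difference of -1.29 ± 0.38. Hdac4, the deacetylase that links loss of nerve input to gene expression, had 8.26, 11.1, 10.1 and 12.6 TPM against 14.2, 18.6 and 41.5 TPM, a difference of -0.90 ± 0.23. In all 3 the running values lay under every non-running value. Ncam1, the adhesion molecule spread over denervated fibres, differed by -1.10 ± 0.33 with overlap, and Dclk1, a doublecortin-like kinase, by -1.10 ± 0.30 without.

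**Figure D2:**
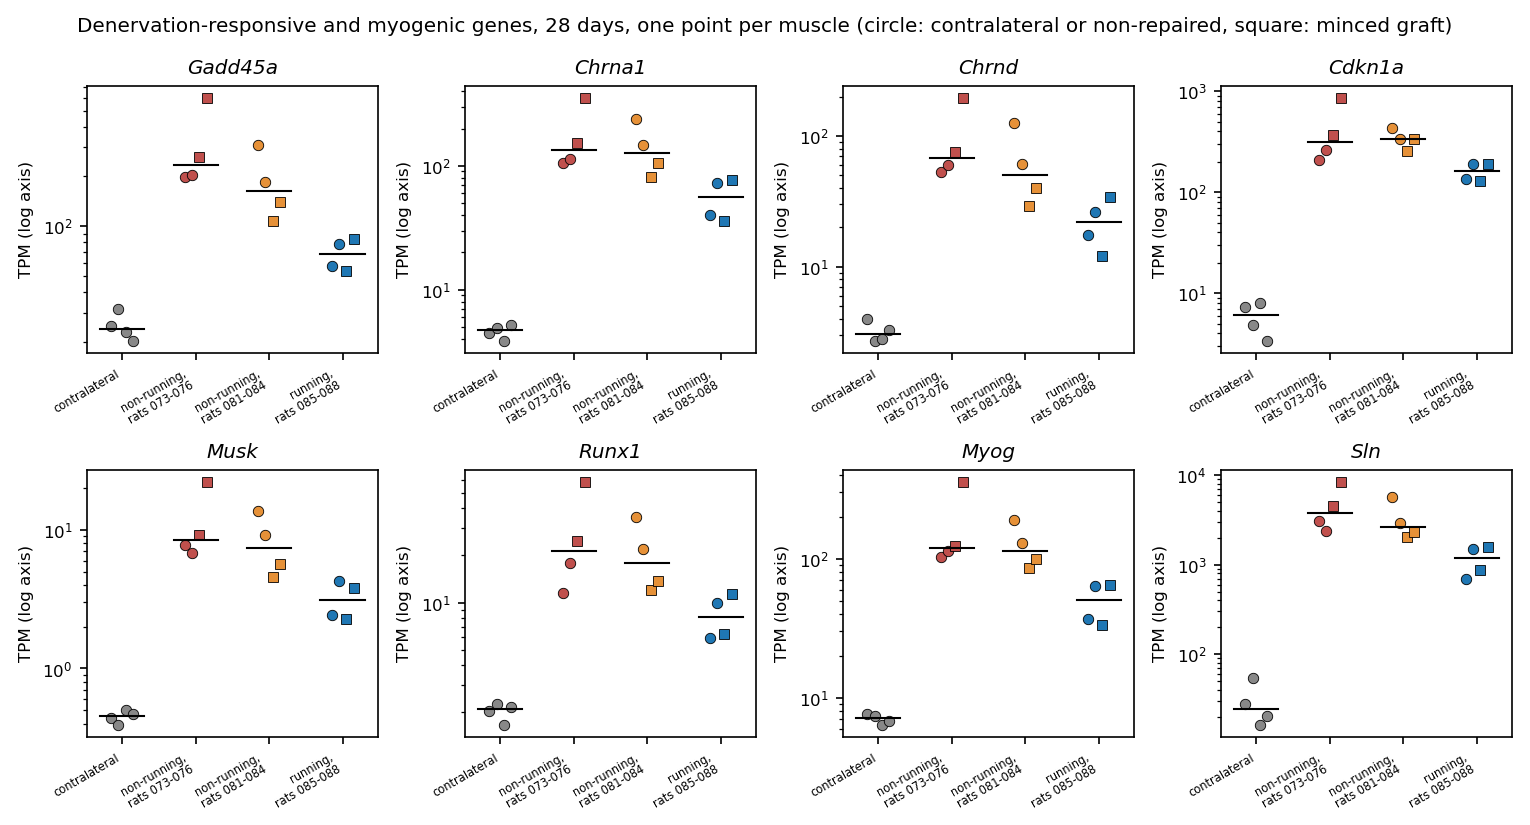
TPM (log axis) of 8 genes in each muscle at 28 DPI, with contralateral muscle in grey, non-running rats 073 to 076 in red, non-running rats 081 to 084 in orange and running rats 085 to 088 in blue, black bars at medians, circles for contralateral or non-repaired and squares for MMG muscle. Running muscles lie between contralateral and non-running muscle, except that rat 088 falls inside the non-running range for Chrnd. Rat 076 is the highest square for each gene shown.

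Running muscle had a median between those of contralateral and non-running muscle for 16 of the 19 genes. Within the non-running muscles the spread was wide, with rat 076 highest for 15 genes and rat 081 among the 2 highest for 14. Rat 087 was the lowest of all 12 muscles for 13 genes, although it belongs to the MMG arm as rat 076 does. By repair arm, the difference of Chrna1 was -1.40 in non-repaired and -1.47 in MMG muscle, and that of Gadd45a -1.70 and -1.69. Each arm held 2 running muscles, and the list as a whole was not counted by arm.

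The promoters of 3 of these genes, Chrna1, Musk and Chrng, and of Myog, which encodes myogenin and stands in the list of myogenic regulators, are shown because E-boxes, the sequence CANNTG bound by myogenic basic helix-loop-helix factors such as myogenin, are known to drive receptor genes in muscle without nerve input. Each is the 250 bases before the RefSeq gene start on GRCr8, read along the gene, with E-boxes in capitals (the motif reads the same on both strands). Chrna1 lies at chr3:78877354-78877603 (minus strand), Musk at chr5:77853486-77853735 (plus), Chrng at chr9:95325734-95325983 (plus) and Myog at chr13:48297226-48297475 (plus).
Chrna1: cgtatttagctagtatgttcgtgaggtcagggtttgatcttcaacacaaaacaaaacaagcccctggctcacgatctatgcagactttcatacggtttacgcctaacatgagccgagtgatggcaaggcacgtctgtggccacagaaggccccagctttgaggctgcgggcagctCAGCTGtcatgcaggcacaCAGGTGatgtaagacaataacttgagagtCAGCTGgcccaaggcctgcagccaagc
Musk: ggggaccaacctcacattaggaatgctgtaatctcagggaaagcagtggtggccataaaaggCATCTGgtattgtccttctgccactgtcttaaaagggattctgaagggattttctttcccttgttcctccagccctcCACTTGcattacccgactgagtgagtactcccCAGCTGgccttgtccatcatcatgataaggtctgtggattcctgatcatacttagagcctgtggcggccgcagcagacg
Chrng: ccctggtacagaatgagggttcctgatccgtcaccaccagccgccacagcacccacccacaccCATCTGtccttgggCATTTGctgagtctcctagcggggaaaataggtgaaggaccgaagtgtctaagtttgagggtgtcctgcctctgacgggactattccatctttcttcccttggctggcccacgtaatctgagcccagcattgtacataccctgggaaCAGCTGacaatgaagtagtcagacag
Myog: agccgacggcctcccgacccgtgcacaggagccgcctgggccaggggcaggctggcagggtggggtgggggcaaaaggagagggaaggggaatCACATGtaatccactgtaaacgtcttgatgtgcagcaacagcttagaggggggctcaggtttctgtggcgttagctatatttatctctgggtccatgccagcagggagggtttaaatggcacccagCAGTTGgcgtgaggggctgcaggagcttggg
The E-boxes of Chrna1 start 75, 56 and 27 bases before the gene start, those of Musk 188, 111 and 79, those of Chrng 187, 173 and 26, and those of Myog 157 and 31. Of the 14 members of the denervation list with a promoter in the RefSeq table, 13 held at least 1 E-box and 5 held at least 3, and over all 33469 promoters of that length the shares were 65.5% and 11.5%. A match is a description of letters, and binding was not measured.

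Myogenic regulators and genes of immature fibres were next. Of 21 myogenic and satellite cell genes tested, 6 were lower and 0 higher at an unadjusted p under 0.05, beside 13.1% and 2.76% of all genes, with a median of -0.24 (-0.13 after rescaling), and the count was 10 without rat 075. Myog, the factor of terminal muscle differentiation, measured 36.7, 64.0, 33.5 and 64.4 TPM in running muscle and 86, 118 and 354 TPM (lowest, median, highest) in non-running muscle. The groups did not overlap (-1.48 ± 0.34), and contralateral muscle held 6.36 to 7.63 TPM. Tmem8c, the myomaker that fuses myoblasts, had 9.38, 11.1, 5.98 and 12.1 TPM against 11.1, 19.9 and 52.7 TPM, a difference of -1.14 ± 0.32 with overlap. Myf6, the regulator most abundant in mature fibres, had 117, 146, 122 and 149 TPM against 159, 180.0 and 369.7 TPM, a difference of -0.60 ± 0.20 without overlap. Myod1 and Myf5, the factors of myoblast commitment, differed by -0.67 ± 0.24 and -0.63 ± 0.24, both with overlap.

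The 8 developmental sarcomere genes had a median of -0.77 (-0.64 after rescaling), with 4 lower and 0 higher at an unadjusted p under 0.05 (13.1% and 2.76% of all genes), a count that was 2 without rat 087. Actc1, the cardiac and fetal alpha-actin, measured 182, 109, 98.5 and 137.99 TPM in running muscle and 192, 328 and 797 TPM in non-running muscle. Its difference was -1.52 ± 0.32 with no overlap, and contralateral muscle held 50.8 to 83.2 TPM. Tnnt2, the cardiac and fetal troponin T, differed by -0.95 ± 0.33, Myl4, the fetal myosin light chain, by -0.79 ± 0.28, and Mybph, a myosin-binding protein, by -0.49 ± 0.17, all with overlap. Myh3 and Myh8, the embryonic and perinatal myosin heavy chains, differed by -0.90 ± 0.50 and -0.74 ± 0.44 and did not reach an unadjusted p under 0.05. For all 8 genes the running median lay between the contralateral and non-running medians.

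Of 14 stress-responsive genes of muscle, 4 were lower and 1 higher at an unadjusted p under 0.05, beside 13.1% and 2.76% of all genes, with a median of -0.19 (-0.06 after rescaling). The count of lower genes was 1 without rat 087. The count of higher genes was 2 without rat 087 and 0 without rat 073, 075, 076, 082, 086 or 088. Sln, sarcolipin, which uncouples the calcium pump of the sarcoplasmic reticulum, was the most abundant of the named genes that were lower, at 684, 1509, 878 and 1576 TPM in running and 2016, 3004 and 8374 TPM in non-running muscle. The difference was -1.67 ± 0.38 without overlap, and contralateral muscle held 16.1 to 53.8 TPM. Ankrd1, a stretch-sensitive ankyrin repeat protein of the sarcomere, had 395, 333, 161 and 255 TPM against 347, 431 and 1163 TPM, a difference of -0.93 ± 0.36 with overlap.

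The contractile genes of mature fibres were read beside the 2.76% of all genes that were higher at an unadjusted p under 0.05 and the 0.99% that were higher without overlap. Of 13 slow-fibre contractile genes, 0 reached an unadjusted p under 0.05 in either direction, with a median of 0.21 (0.34 after rescaling), and 1 was lower without rat 075, 082 or 085 and 1 higher without rat 084. Without rat 082 that median was -0.05. The summed level of the slow-fibre genes had a median of 5606 TPM in running and 6327 TPM in non-running muscle. Of 16 fast-fibre contractile genes, 3 were higher at an unadjusted p under 0.05 and 0 lower, with a median of 0.19 (0.31 after rescaling), and this count was 0 without rat 085, 086 or 088 and 1 without rat 081. Actn3, the alpha-actinin of fast fibres, measured 6072, 5725, 5266 and 5851 TPM in running muscle and 2396, 4494 and 5168 TPM in non-running muscle, a difference of 0.47 ± 0.20. Mylk2, the skeletal myosin light chain kinase, had 779, 809.8, 778 and 887 TPM against 266, 610.2 and 711 TPM, a difference of 0.66 ± 0.27. Mybpc2, the fast myosin-binding protein C, differed by 0.46 ± 0.20. None of the 3 overlapped between the groups, and contralateral levels were higher still (6626 to 7038 TPM for Actn3, 1098 to 1267 TPM for Mylk2). Of 16 genes for calcium handling and excitation-contraction coupling, 3 were higher and 2 lower at an unadjusted p under 0.05, beside 2.76% and 13.1% of all genes. The list median was 0.02 (0.14 after rescaling), with 9 above 0 and 7 below. The lower count was 0 without rat 087 and 1 without rat 075 or 088. Among them, Jph1, a junctophilin that ties the reticulum to the tubules, differed by 0.22 ± 0.07 and Cacna1s, the voltage sensor of the tubules, by 0.24 ± 0.08, both with overlap. Cacnb1, the beta subunit of the same channel, differed by -0.49 ± 0.17 without overlap.

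Among the fuel-use genes named here, Pdk4, Scd and Angptl4 differed by more than 1 on the log2 scale. Pdk4 and Angptl4 stand in the fatty acid list, Scd and Cidea in the adipocyte list, and Lpin1 in none. Of 17 adipocyte genes tested, 3 were lower and 1 higher at an unadjusted p under 0.05, beside 13.1% and 2.76% of all genes. In that list 9 differed above 0 and 8 below, with a median of 0.01 (0.10 after rescaling). With 1 muscle left out the higher count was 0 to 2. Pdk4, the kinase that closes pyruvate dehydrogenase and so spares glucose, measured 35.4, 85.2, 64.5 and 70.7 TPM in running muscle and 122, 215 and 329 TPM in non-running muscle. The difference was -1.79 ± 0.30 and the groups did not overlap. The running values lay under the contralateral range of 99.7 to 246 TPM, which comes from non-running rats 073 to 076. Libraries of running rats 077 to 080 labelled as uninjured, but titled as injured, had Pdk4 at 75.96 to 151.34 TPM. Scd, the stearoyl-CoA desaturase of fatty acid synthesis, had 32.4, 34.9, 32.2 and 40.6 TPM against 46.1, 100.7 and 214 TPM, a difference of -1.65 ± 0.33 without overlap. Angptl4, the secreted inhibitor of lipoprotein lipase, had 0.66, 1.01, 2.88 and 1.72 TPM against 1.44, 6.08 and 12.7 TPM, a difference of -1.39 ± 0.45 with overlap. Cidea, a lipid droplet protein, differed by -0.82 ± 0.22 without overlap, and Lpin1, the phosphatidate phosphatase lipin 1, was higher in running muscle. Lpin1 had 54.0, 63.3, 53.4 and 55.1 TPM against 23.5, 35.8 and 45.6 TPM, a difference of 0.72 ± 0.16 without overlap.

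The wider metabolic lists were read beside the 13.1% of all genes that were lower and the 2.76% that were higher at an unadjusted p under 0.05. Among 39 nuclear genes of oxidative phosphorylation and 17 of the citric acid cycle, 0 reached an unadjusted p under 0.05 in either direction, with medians of 0.02 and 0.05 (0.15 and 0.17 after rescaling). Without rat 082, 2 genes of oxidative phosphorylation and 1 of the citric acid cycle were lower and the median of the first list was -0.02, and without rat 074 or 083 1 gene of oxidative phosphorylation was higher. Among 27 genes of fatty acid uptake and oxidation, 1 was higher (Cd36, the fatty acid transporter, 0.27 ± 0.12) and 2 lower, with a median of -0.07 that became 0.05 after rescaling, and Cd36 missed that p without rat 075, 076, 082, 086, 087 or 088. The 26 glycolysis and glycogen genes had a median of 0.21 (0.34 after rescaling), and 1 of them, Ppp1r3a, the glycogen-targeting subunit of a protein phosphatase, reached an unadjusted p under 0.05 at 0.29 ± 0.09. That count was 5 without rat 083, 3 without rat 075 or 076 and 2 without rat 082. Of the 26, 23 had a difference above 0, and 3 were higher without overlap, beside 0.99% of all genes. For 24 of the 26 the running median lay between the contralateral and non-running medians. The list of endurance-training genes holds regulators of that response and factors secreted by muscle. Of its 25 members tested, 1 was lower and 0 higher, with a median of -0.01, whereas after rescaling 0 were lower and 3 higher with a median of 0.09. The count of lower genes was 2 without rat 086 and 0 without rat 075, 081, 082, 084, 085, 087 or 088, and 1 gene was higher without rat 075 or 076.

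Nr1d1, a clock gene, had the smallest p of all genes on the higher side. Of 15 clock genes tested, 4 were higher and 1 lower at an unadjusted p under 0.05, beside 2.76% and 13.1% of all genes, with a median of -0.05 (0.07 after rescaling). Nr1d1 encodes the repressor REV-ERB alpha and measured 121, 96.2, 110.1 and 119 TPM in running muscle and 66.9, 73.8 and 97 TPM in non-running muscle, a difference of 0.54 ± 0.10 in which rat 086 fell just inside the non-running range. Ciart, a repressor of the clock's activators, had 8.16, 8.55, 9.67 and 14.4 TPM against 3.81, 4.92 and 8.41 TPM, a difference of 0.81 ± 0.19 with rat 085 inside the range. Nr1d2, REV-ERB beta, differed by 0.18 without overlap, Dbp, a clock output factor, by 0.25 with overlap, and Arntl, the activator BMAL1, by -0.49 ± 0.18 with overlap. The hour at which each muscle was collected is not given in the labels, and its part in these values was not tested.

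The Ciart promoter is shown because BMAL1 and its partner bind the E-box form CACGTG. It lies at chr2:186112247-186112496 (minus strand, GRCr8, RefSeq), with CACGTG in capitals.
Ciart: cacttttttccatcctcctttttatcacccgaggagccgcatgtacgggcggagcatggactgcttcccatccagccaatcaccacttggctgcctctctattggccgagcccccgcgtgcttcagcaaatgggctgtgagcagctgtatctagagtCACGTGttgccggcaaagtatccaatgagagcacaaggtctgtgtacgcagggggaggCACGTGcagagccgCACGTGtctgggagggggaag
The 3 matches start 93, 35 and 21 bases before the gene start. At least 3 matches occurred in 0.0508% of the 33469 promoters and at least 1 in 5.59%, and 4 of the 13 clock genes with a RefSeq promoter held at least 1. Of the 2 RefSeq promoters of Nr1d1, 1 held 1 match and the other held 0.

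**Figure D3:**
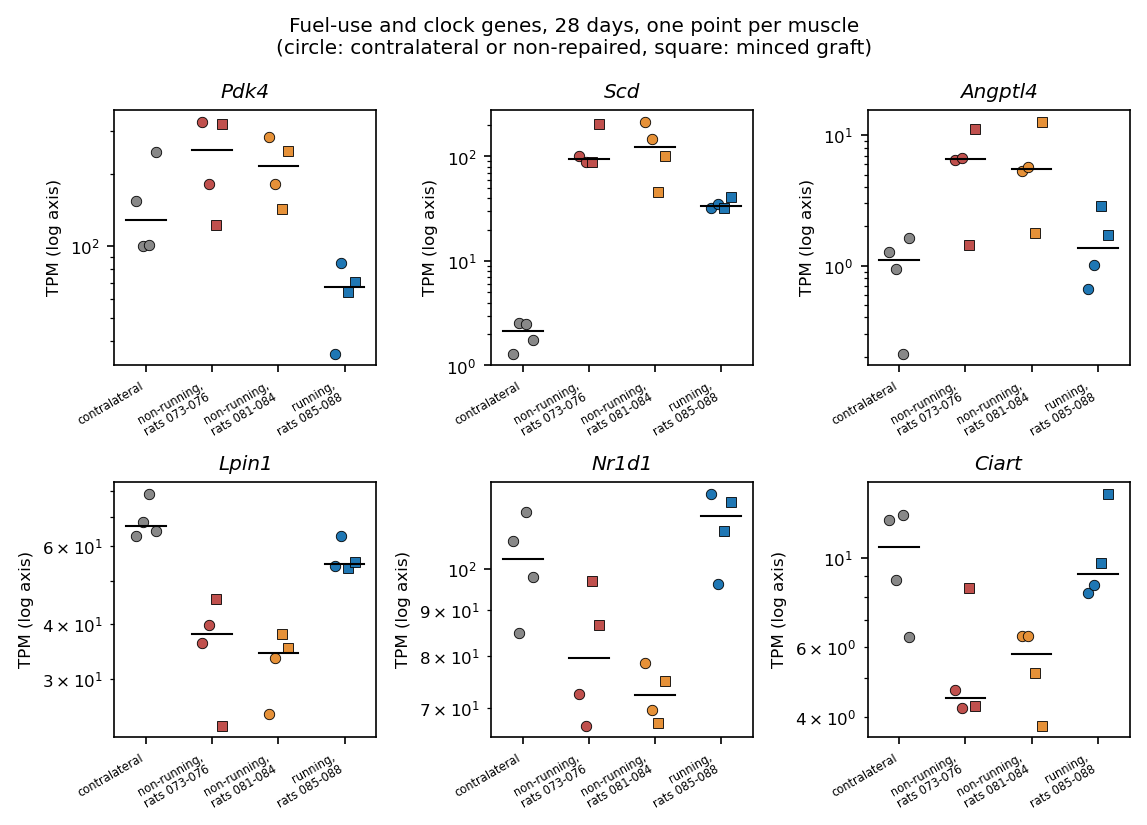
TPM (log axis) of 3 fuel-use genes (Pdk4, Scd, Angptl4), Lpin1 and 2 clock genes (Nr1d1, Ciart) in each muscle at 28 DPI, with the same colours and symbols as in the plot of denervation genes and black bars at medians. Running muscles lie lowest for Pdk4 and Scd apart from contralateral muscle in Scd, and highest of the injured muscles for Lpin1.

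Early genes that contraction is known to induce included a few that were lower. Of 26 tested, 5 were lower and 0 higher at an unadjusted p under 0.05, beside 13.1% and 2.76% of all genes, with a median of -0.10 (4 lower and a median of -0.02 after rescaling). With 1 muscle left out that median ranged from -0.25 (without rat 087) to -0.00069 (without rat 088), and the count of lower genes was 3 without rat 073, 074 or 088. Without rat 073, 1 was higher. Jun, a subunit of the AP-1 factor, had 47.3, 61.7, 55.2 and 58.4 TPM in running muscle and 74, 90.8 and 167 TPM in non-running muscle, a difference of -0.80 ± 0.19. Cyr61, a matricellular protein induced by load, differed by -1.0 ± 0.26. Neither overlapped between the groups.

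Besides Pdk4, Scd, Actc1 and Gadd45a, described above with their lists, other genes had small p values and no overlap. On the lower side, Hotairm1 had 10.5, 11.2, 8.58 and 11.4 TPM in running and 16.6, 20.8 and 30.4 TPM in non-running muscle (-0.96 ± 0.15). Cntfr, the receptor of ciliary neurotrophic factor, had 17.9, 18.4, 13 and 18.2 TPM against 30.2, 37.5 and 101.4 TPM (-1.33 ± 0.29). Faah, which breaks down endocannabinoids, differed by -1.61 ± 0.36, and the fibroblast growth factors Fgf11 and Fgf22 by -0.78 ± 0.16 and -0.54 ± 0.11. Phlda3, a p53 target that restrains Akt, had 69.8, 89.9, 81.7 and 96.3 TPM against 109.9, 123 and 205 TPM (-0.65 ± 0.14). The differences of H2afj, a histone H2A variant, and Klf11, a Krüppel-like factor, were -0.55 ± 0.12 and -0.71 ± 0.15. On the higher side, differences were smaller. Amd1, an enzyme of polyamine synthesis, had 37, 34.8, 35.1 and 34 TPM in running and 21.5, 26.7 and 29.5 TPM in non-running muscle (0.41 ± 0.08). Tob1, an antiproliferative protein, had 124.6, 119, 133.06 and 133.12 TPM against 73.9, 95.6 and 109 TPM (0.43 ± 0.10), Hs3st1, a heparan sulfate sulfotransferase, differed by 0.51 ± 0.11 and Stradb, a pseudokinase partner of LKB1, by 0.35 ± 0.08. For these 12 genes every running value lay outside the non-running range.

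**Figure D4:**
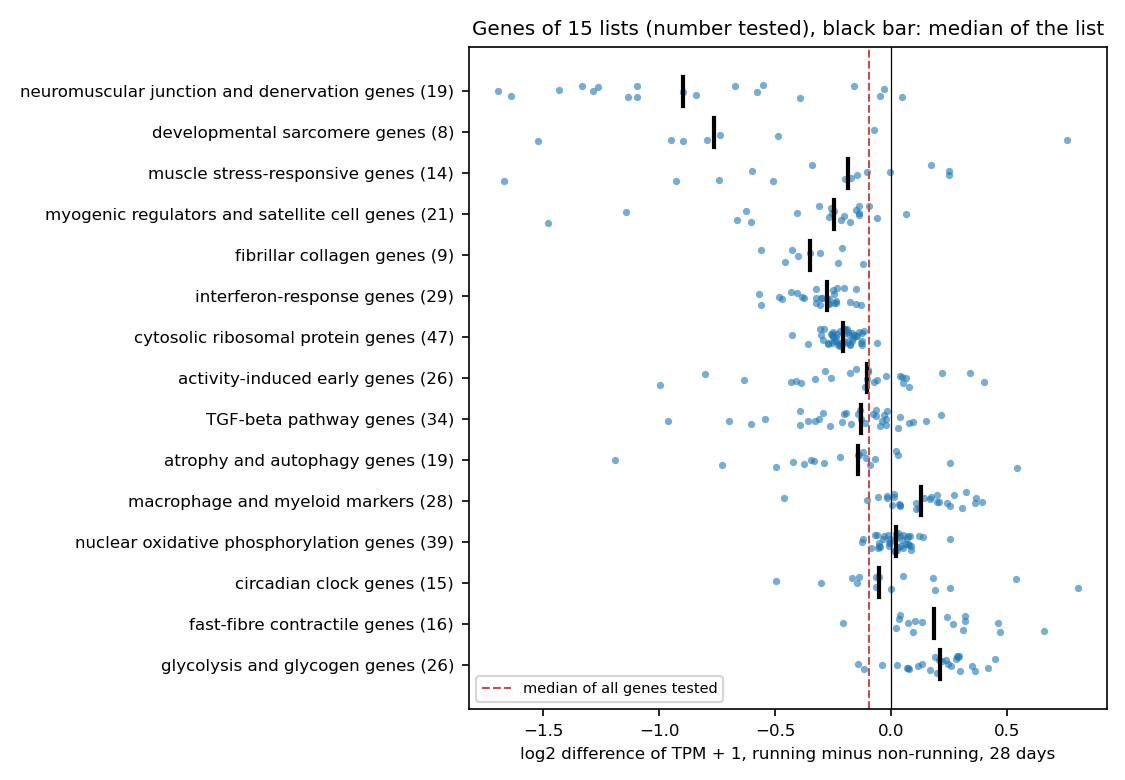
Log2 difference of each tested gene (points, running minus non-running, 28 DPI) in 15 gene lists, with the list median as a black bar and the median of all genes tested as a dashed line at -0.10. The denervation list (median -0.90) and the developmental sarcomere list (median -0.77) lie farthest to the left.

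All 9 fibrillar collagen genes and all 28 macrophage and myeloid markers tested overlapped between the groups, and over all genes 5.54% did not overlap. The 9 fibrillar collagen genes had a median of -0.35 (-0.23 after rescaling), and Col1a1, the main chain of type I collagen, had 696, 532, 573 and 409 TPM in running muscle and 454, 721 and 1192 TPM in non-running muscle (-0.46 ± 0.26). In that list 1 gene was lower at an unadjusted p under 0.05, beside 13.1% of all genes. The count was 6 without rat 075, where 2087 genes in all were lower, and 0 without rat 085, 087 or 088. The 28 macrophage and myeloid markers had a median of 0.13 (0.25 after rescaling) with 0 genes at an unadjusted p under 0.05 in either direction. Without rat 087 their median was -0.11 and 1 was lower, and without rat 082 or 088 1 was higher. The summed level of the 29 markers in the table was 749 to 2778 TPM in running and 635 to 2016 TPM in non-running muscle, with rat 087 highest. Of 29 interferon-response genes 8 were lower and 0 higher, beside 13.1% and 2.76% of all genes, with a median of -0.28 (5 lower and a median of -0.18 after rescaling). In that list 1 gene was lower without overlap, beside 4.55% of all genes, and the count of lower genes was 3 without rat 088, 4 without rat 087, 5 without rat 074 or 086 and 21 without rat 075. It was 23 in rats 081 to 088 alone, beside 20.3% of all genes there. Of 12 Schwann cell and nerve genes 1 was lower and 0 higher, beside 13.1% and 2.76% of all genes, with a median of -0.02 (2 lower, median 0.08 after rescaling). Without rat 075, 082 or 083 the lower count was 2, and without rat 073 the higher count was 4. The summed level of the 15 genes of this list in the table, of which 12 were tested, was 127.7 to 153 TPM in running and 104.9 to 250.2 TPM in non-running muscle.

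Within a repair arm, 2 running muscles were set against 4 non-running muscles. In non-repaired muscle 0 genes were called by limma and 327 (3.14%) had an unadjusted p under 0.05 (2.17% lower, 0.971% higher). In MMG muscle 0 genes were called by limma and 667 (6.41%) had an unadjusted p under 0.05 (5.38% lower, 1.03% higher). For the difference of the running effect between the arms, 0 genes were called and 48 (0.461%) had an unadjusted p under 0.05. Pdk4 differed by -2.07 in non-repaired and -1.5 in MMG muscle, Scd by -1.92 and -1.38, and Sln by -1.71 and -1.63. None of these differences between the arms was called, and with 2 running muscles in an arm this does not show that the arms were alike.

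The range of rat numbers was then read without running. Between rats 081 to 084 and rats 073 to 076, all non-running, 1 gene was called (0.00961%) and 461 (4.43%) had an unadjusted p under 0.05, 3.14% lower and 1.29% higher in the later range. The denervation list had a median of -0.27 in the later against the earlier range, with 1 member lower at an unadjusted p under 0.05, and the developmental sarcomere list 0.10. Within rats 081 to 088, where 4 running rats were set against the 4 non-running rats nearest to them in number, 1 gene was called (0.00959%) and 2460 (23.6%) had an unadjusted p under 0.05, 2116 (20.3%) lower and 344 (3.3%) higher. Here 15 of the 19 denervation genes were lower, with a median of -0.81, and Chrna1 differed by -1.30, Gadd45a by -1.34, Musk by -1.08, Pdk4 by -1.74 and Lpin1 by 0.77. Of the other lists, 4 of 26 glycolysis and glycogen genes, 3 of 25 endurance-training genes and 3 of 11 Schwann cell and nerve genes were higher, and 3 of 47 cytosolic ribosomal protein genes and 23 of 29 interferon-response genes were lower. The called gene was Mir6318, a microRNA gene, in both comparisons. It was at 7.18, 7.44, 5.81 and 4.79 TPM in rats 073 to 076, listed at 0 in each of rats 081 to 084 and at 2.90, 3.26, 4.76 and 5.1 TPM in the running rats. Its adjusted p was 2.74e-05 in limma between the number ranges and 0.00202 within rats 081 to 088, and no fold is given against a group listed at 0.

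At 14 DPI the numbers of running and non-running rats alternated, so there running did not go with number order. With 8 running and 8 non-running injured muscles (odd numbers not running and even numbers running, both repair arms), 0 of 10684 genes (0%) were called and 704 (6.59%) had an unadjusted p under 0.05, 506 (4.74%) higher and 198 (1.85%) lower. The denervation list had a median of 0.24 at that day, with 2 members higher and 0 lower. Chrna1 ranged from 121 to 524 TPM (median 202) in running and from 107.2 to 299.5 TPM (median 152) in non-running muscle, a difference of 0.45 ± 0.30. Gadd45a differed by 0.35 ± 0.33, Cdkn1a by 0.53 ± 0.24, Myog by 0.31 ± 0.26 and Sln by 0.38 ± 0.29, and the ranges overlapped for each.

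The change of the running difference from 14 to 28 DPI was tested in 1 fit of 28 muscles. No gene was called (0 of 10684, 0%, lowest adjusted p 0.107 in limma, for Phlda3), and 2013 (18.8%) had an unadjusted p under 0.05, 1611 (15.1%) with a difference below 0 and 402 (3.76%) above 0. Without rat 083, 14 genes were called, among them Actc1, Cdkn1a, Cntfr, Musk, Myog, Scd and Sln. In that fit the 28 DPI difference on its own, read after seeing the data, called 8 genes (0.0749%), all lower in running muscle (Actc1, Cntfr, Klk1, Map6d1, Myog, Scd, Slc51a and Sln), with 1497 genes (14%) lower and 342 (3.2%) higher at an unadjusted p under 0.05 (17.2% in all). The spread at 14 DPI enters that estimate. The denervation list had a day difference with a median of -1.22 and 15 of 19 members below 0 at an unadjusted p under 0.05. Other lists moved the same way. Below 0 at that p were 46 of 47 cytosolic ribosomal protein genes (median -0.41), 7 of 10 MHC class II genes (-0.61) and 9 of 21 myogenic genes (-0.34). In each of these lists 0 were above 0 at that p. For Chrnd the difference between the days was -2.11 ± 0.54, for Sln -2.06 ± 0.46, for Gadd45a -2.05 ± 0.53, for Chrna1 -1.89 ± 0.48 and for Cdkn1a -1.66 ± 0.38. For Pdk4 the difference was -0.53 at 14 DPI and -1.79 at 28 DPI, and for Nr1d1 0.20 and 0.54. For Lpin1 and Ciart it was -0.05 and -0.03 at 14 DPI. Glycolysis and glycogen genes had a median of -0.15 at 14 DPI and a day difference of 0.37, with 14 of 26 above 0 at an unadjusted p under 0.05. Days differed in the range of rat numbers as well, so day and number range cannot be told apart.

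**Figure D5:**
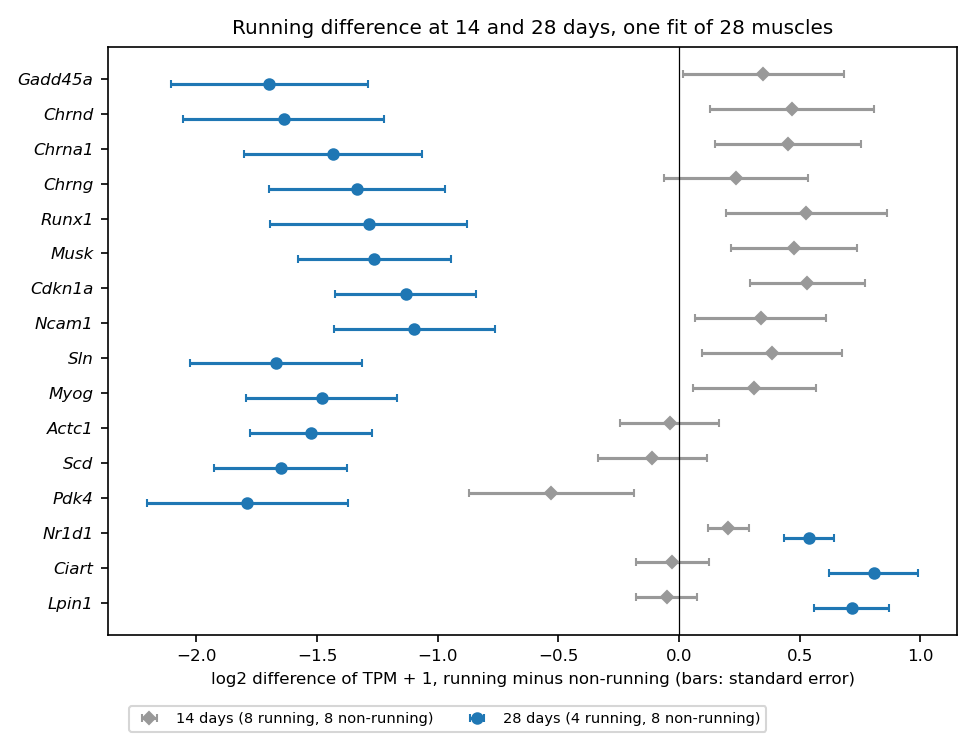
Log2 difference between running and non-running injured muscle for 16 genes at 14 DPI (grey diamonds, 8 against 8 muscles) and 28 DPI (blue circles, 4 against 8 muscles), bars showing the standard error from the fit of 28 muscles. The first 10 genes, from Gadd45a to Myog, lie above 0 at 14 DPI and below 0 at 28 DPI. At 28 DPI in this fit Sln, Myog, Actc1 and Scd were called, and at 14 DPI no gene was.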

How the data were processed

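RNA was measured by paired-end sequencing of total RNA from rat tibialis anterior muscle. Reads were quantified by the authors with kallisto, and TPM per gene symbol was deposited in 1 table of all libraries (DESeq is also named in the submitters' processing notes, the study's methods give default settings and a GenBank-annotated rat genome for kallisto, and versions of these tools are not given in the sources used here). The table holds 16182 entries, and the last, Tubb4a, is incomplete, so 16181 symbols up to Tubb3 were used and later symbols were not analysed here. Depth cannot be read from TPM.

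Columns were joined to the labels by name, with 1 library per muscle at 28 and 14 DPI. Of the series' libraries, 9 were left without a group. A gene was tested at a mean above 1 TPM in at least 1 group. The values entered limma (3.58.1, under R 4.3.3) as log2(TPM + 1), a scale that understates the change of low genes, with an intensity trend and repair as covariate. Repair arms were read as contrasts in a fit of 4 group means, number range as a term beside repair and running, and the days in 1 fit with repair and running within day. A gene was called at a Benjamini-Hochberg adjusted p under 0.05 and a log2 fold change beyond 1, and unadjusted counts are descriptions. Each muscle came from another rat, so p values measure the spread between rats, and preparation batches are not given in the labels. The same code was tested on simulated data.

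Members, gene lists and comparisons were chosen with earlier results of these data known, and the lists were written from known gene functions. The genes named are, since none was called, the 12 tested genes in each direction with the smallest p, the 3 members of each list with the smallest p, genes of the paper, and called genes of the other comparisons, and some members of the denervation, junction, clock, fuel and fibre lists were added after their values were seen. Some genes are not reported here. Promoters came from RefSeq (GRCr8), whereas the submitters' notes name another rat build, so no other coordinates are given. Alternatives were a pseudocount of 0.1 TPM, no filter, median-of-ratios size factors, no fold limit, no trend, no covariate, number range as a covariate, rats 081 to 088 alone, 1 model of all assigned muscles, and each muscle left out in turn. No library at 28 or 14 DPI was of low complexity, which was taken as more than 30% of TPM in ribosomal RNA or under 5000 genes detected. Tables were made with pandas 2.3.3 and numpy 2.4.6 in Python 3.11.15 and plots with matplotlib 3.10.9.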

Additional observations from a re-analysis of the deposited data

Results flagged for a closer look

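Among the genes named, 202 sets of values (each gene in the running and in the non-running muscles) were searched for 1 muscle set apart from its group by Dixon's limits, which chance alone passes in about 5% of sets, and 22 sets held such a muscle. Of these, 18 were the non-running MMG muscle of rat 076. It stood above the other non-running muscles for Hdac4 (41.5 TPM), Chrne (100.9 TPM), Rapsn (46.1 TPM), Lrp4 (17.6 TPM), Myod1 (142.8 TPM), Itga7 (55.5 TPM), Myc (13.8 TPM), Phlda3 (205 TPM) and Trim63 (396 TPM). The same held for Isg20 (9.08 TPM), Rps10 (747 TPM), Tgif1 (24.6 TPM), Chrd (31.9 TPM), Lama5 (18.99 TPM), Nfkb2 (27.5 TPM) and Cnp (95.6 TPM). It stood below them for Mybpc2 (958 TPM) and Pgk1 (785 TPM). Without this muscle 1721 genes had an unadjusted p under 0.05, beside 1649 with it, and the lowest adjusted p in limma was 0.0599, with 0 genes called. Without it the differences of these 18 genes kept their direction, and 1 of them, Pgk1, moved by more than 1.5 times (0.26 to 0.17). Hdac4 moved from -0.90 to -0.76, Chrne from -0.84 to -0.66, Rapsn from -0.39 to -0.31, Lrp4 from -0.55 to -0.40, Myod1 from -0.67 to -0.50 and Mybpc2 from 0.46 to 0.32.

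Lipe, the hormone-sensitive lipase, was low in rat 075 (8.18 TPM). Among the running muscles, rat 087 was low for Cntfr (13.04 TPM) and for Hs3st1 (20.3 TPM), and rat 088 was high for Mt1, a metallothionein (43.4 TPM).

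The 8 libraries of running rats 077 to 080 at 28 DPI were in no comparison because title and label disagree. The 4 whose title names the control leg and whose label says injured had medians of 100.2 TPM for Chrna1, 72.95 TPM for Myog and 1884 TPM for Sln. By rat, Chrna1 was at 66.3, 136.35, 134.19 and 61.1 TPM. Pdk4 was at 140.37, 174.61, 267.48 and 70.5 TPM, Scd at 31.56, 79.7, 101.66 and 39.4 TPM, and Actc1 at 190.1, 343.49, 422.64 and 195.88 TPM. In the non-running muscles compared, Pdk4 was at 122 to 329 TPM, Scd at 46.1 to 214 TPM and Actc1 at 192 to 797 TPM, and in the running muscles at 35.4 to 85.2, 32.2 to 40.6 and 98.5 to 182 TPM. Of the 4 libraries, 1 lay inside the running range for Pdk4, 1 for Scd and 0 for Actc1. For Chrna1, Sln and Myog, 2 each did. The other libraries of these rats, titled as injured and labelled as uninjured, had Chrna1 at 4.80, 6.26, 4.71 and 4.57 TPM. Contralateral muscles of rats 073 to 076 had Chrna1 at 3.83 to 5.22 TPM.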

How the results depend on the processing

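With pseudocount, filter, size factors, fold limit, trend or covariate changed, or any muscle left out, 0 genes were called for running against non-running muscle at 28 DPI. One model of all assigned muscles called 8 genes, all lower in running muscle (Musk, Faah and Map6d1 among them). Rat number range as a covariate, and rats 081 to 088 alone, called 1 gene each (Mir6318). Chosen after seeing the data, the 28-day contrast in the fit of both days called 8 lower genes (Actc1, Cntfr, Klk1, Map6d1, Myog, Scd, Slc51a and Sln), and the model of all assigned muscles without low-complexity libraries 35 lower genes (Chrna1, Chrnd, Chrng, Gadd45a, Musk and Runx1 among them). Counted once for each list that holds them, members of the gene lists called were 0, and 1, 18 and 5 in the model of all muscles, in that model without low-complexity libraries and in the fit of both days. The cause of these differences between models was not tested. With 1 muscle left out, list medians ranged from -0.29 to -0.15 for myogenic regulators (nearest 0 without rat 076), -0.26 to -0.12 for stress-responsive genes (without rat 076 or 081), -0.34 to -0.16 for genes of the paper (without rat 088), -0.09 to -0.00078 for clock genes (without rat 076), -0.11 to -0.03 for fatty acid genes (without rat 085) and 0.0068 to 0.09 for citric acid cycle genes (nearest 0 without rat 082). The median changed sign without rat 073, 076, 084, 085 or 088 for Schwann cell and nerve genes (-0.05 to 0.07), without rat 075 or 085 for endurance-training genes (-0.05 to 0.03) and without rat 076, 082 or 087 for oxidative phosphorylation genes (-0.02 to 0.06).

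For non-repaired muscle those 2 models of all muscles called 1 and 2 genes, and leaving out single muscles gave 0 to 5. For MMG muscle the pseudocount of 0.1 TPM gave 1 and single muscles 0 to 3. For the difference between arms the pseudocount and both models gave 1 each, and single muscles 0 to 5. For 28 against 14 DPI the models gave 8 and 57, and single muscles 0 to 14. Between number ranges the pseudocount gave 2, no fold limit 3, and single muscles 1 to 2. Within rats 081 to 088 the pseudocount and size factors gave 2 each, and single muscles 1 to 6. In all of these, an arm left with 1 muscle was taken to vary like the other groups. Of 2323 values of the named genes under the alternatives, 2289 kept direction and side of the threshold, 34 passed the threshold in addition, and 0 changed direction. None of these genes was called in the main fit, so keeping the side meant staying uncalled. Many were named for a small p in the same muscles or after their values were seen, so the tally is not independent evidence.

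No paired analysis was possible because each muscle came from another rat and replicate numbers only name samples. TPM hides depth, so counting error could not be weighed for genes of a few TPM such as Musk, Angptl4 and Mir6318.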

Other observations

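Of 34 TGF-beta pathway genes, 7 were lower and 0 higher in running muscle at an unadjusted p under 0.05, with a median of -0.13, beside 13.1% and 2.76% of all genes, and after rescaling 5 were lower and 3 higher with a median of -0.02 (the first count was 4 without rat 085 or 088 and 3 without rat 087). Without rat 082, 084 or 085 1 was higher, and without rat 076 the median was -0.07. Chrd, the bone morphogenetic protein antagonist chordin, measured 5.91, 8.38, 4.65 and 8.41 TPM in running muscle and 8.91, 12.9 and 31.9 TPM (lowest, median, highest) in non-running muscle, a difference of -0.96 ± 0.27. Tgif1, a repressor of the pathway's targets, had 7.66, 7.61, 7.96 and 8.14 TPM against 8.96, 13 and 24.6 TPM, a difference of -0.70 ± 0.18. Neither overlapped. Scx, a tendon transcription factor, differed by -0.77 ± 0.22 and Igfbp5, an insulin-like growth factor binding protein, by -0.66 ± 0.22, also without overlap. Of 7 tendon and cartilage genes tested, 1 was lower and 0 higher, and 2 differed above 0. The lower count was 2 without rat 073, 075, 081, 085 or 086. Of 15 insulin-like growth factor genes, 3 were lower and 0 higher. That lower count was 5 without rat 075 and 1 without rat 085, 087 or 088.

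Of 19 atrophy and autophagy genes, 4 were lower and 1 higher at an unadjusted p under 0.05, beside 13.1% and 2.76% of all genes. The median was -0.14, and after rescaling 4 were lower and 2 higher with a median of -0.02. The lower count was 7 without rat 083, and the higher count was 2 without rat 075, 082, 083 or 084 and 0 without rat 086 or 088. The higher gene was Foxo4, a forkhead transcription factor, at 0.26 ± 0.10, named after its value was seen. Trim63, the muscle ubiquitin ligase MuRF1, had 173, 195, 185 and 216 TPM against 214, 243 and 396 TPM (-0.42 ± 0.14), and rat 088 overlapped the non-running range. Its difference at 14 DPI was 0.60 ± 0.20 and the change between days -1.02 ± 0.32, not called. Mt1, a metallothionein that buffers zinc and copper, differed by -1.19 ± 0.30 with overlap.

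The 47 cytosolic ribosomal protein genes had a median of -0.21 with 12 lower and 0 higher at an unadjusted p under 0.05 (13.1% and 2.76% of all genes), and a median of -0.08 with 0 lower after rescaling. The count was 28 without rat 083, 5 without rat 074, 3 without rat 075, 2 without rat 081 or 087, 1 without rat 086 or 088 and 0 without rat 085. At 14 DPI their median was 0.20 with 38 higher, beside 4.74% of all genes.

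At 14 DPI the 28 macrophage and myeloid markers had a median of 0.39 with 10 higher in running muscle at an unadjusted p under 0.05, and 9 of 10 genes for antigen presentation by MHC class II were higher, with a median of 0.42, beside 4.74% of all genes. At 28 DPI the medians of these lists were 0.13 and -0.17 with 0 genes in either direction (0.25 and -0.07 after rescaling). With 1 muscle left out they ranged from -0.11 (without rat 087) to 0.27 (without rat 088) and from -0.31 (without rat 087) to -0.07 (without rat 076). None of these genes was called by limma on either day. Of 6 neutrophil markers tested, 2 were higher and 0 lower at an unadjusted p under 0.05 at 28 DPI. Over all genes 2.76% were higher and 13.1% lower at that day. Of the 6 markers, 3 differed above 0 and 3 below. Their median was 0.02, from -0.17 without rat 087 to 0.25 without rat 088. Without rat 075, 1 was lower. S100a8 and S100a9, the calprotectin subunits, differed by 0.75 ± 0.23 and 0.71 ± 0.23, with overlap, and the lowest difference in the list was -0.36.

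Of 27 genes that the paper's text names and that were tested, 4 were lower and 1 higher at an unadjusted p under 0.05, with a median of -0.26, beside 13.1% and 2.76% of all genes. After rescaling 4 were lower and 3 higher with a median of -0.15. The lower count was 11 without rat 075. The higher count was 0 without rat 073 or 087 and 2 without rat 082 or 084. In rats 081 to 088 alone 8 were lower, beside 20.3% of all genes there. The study chose these genes on samples of this series, so the list is not independent evidence of a direction.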
